A study of Canis rufus and Canis latrans with 56 samples.

Results

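The heat shock chaperones described here are 10 genes of the cytosolic and mitochondrial protein folding machinery, measured in whole blood of 1 coyote (Canis latrans, a free-ranging female) and 13 red wolves (Canis rufus). The wolves comprised 6 captive animals (2 females and 4 males) and 7 free-ranging ones (2 females and 5 males). Captivity and sex of single wolves and all ages are not given in the labels used here, so no comparison by them was made. The members are the probes annotated to HSPA8, HSPA9, HSPA4, HSP90AA1, HSP90AB1, HSPH1, DNAJA1, DNAJB1, HSPD1 and HSPE1, which are 12 of 24354 probes and 10 of 16121 named genes. From each animal 1 labelled RNA was read on 4 human Illumina bead arrays, which are technical repeats. Each animal counts once in the correlations and in the comparison with the coyote. The test among wolves uses their 52 arrays and sets differences between animals against the spread of repeated arrays. The 56 arrays lay on 7 slides of 8 arrays each.

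Chaperones of the Hsp70 family hold unfolded stretches of protein and release them in a cycle driven by ATP. J-domain proteins deliver the client and start ATP hydrolysis, and nucleotide exchange factors of the Hsp110 family end the cycle. Clients such as kinases and steroid receptors pass on to Hsp90, and proteins imported into mitochondria are folded by the mitochondrial Hsp70 and by the barrel-shaped Hsp60 with its lid Hsp10. Many of these genes are switched on by the heat shock factor HSF1 when unfolded proteins accumulate, while others are made in all cells at all times.

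Each value is a log2 intensity with the array mean set to 0, and a difference of 1 doubles the intensity. A gene stands for its brightest probe, and levels are given at the average slide. HPX had the highest mean among 41 genes of tissues foreign to blood (liver and skeletal muscle), 0.396, which served as a bound for background, and 1597 of the named genes lay above it. Gene names are those of the human probes, and which canid transcript bound to each was not measured, so levels of different genes cannot be ranked by abundance. The 95th percentile of an array, a measure of its signal range, ran from 0.332 to 1.24, and wolf 11136 had the narrowest range of the wolves (mean 0.381 over its arrays, others 0.568 to 0.866). Of the blood cell markers 6 of 10 measured red cell genes lay above the bound, among them HBB, HBD, HBA1 and HBA2, but only 1 of 13 neutrophil, 1 of 8 monocyte, 2 of 12 T and NK cell, 1 of 7 platelet and 0 of 6 B and plasma cell genes.

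Only 3 of the 10 chaperones had a mean level above the bound: HSPA8, DNAJA1 and HSPH1. HSP90AA1 exceeded it in 5 of 13 wolves. The other 6 genes stayed below it in the coyote and in all 13 wolves, between -0.29 and 0.20.

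**Figure D1:**
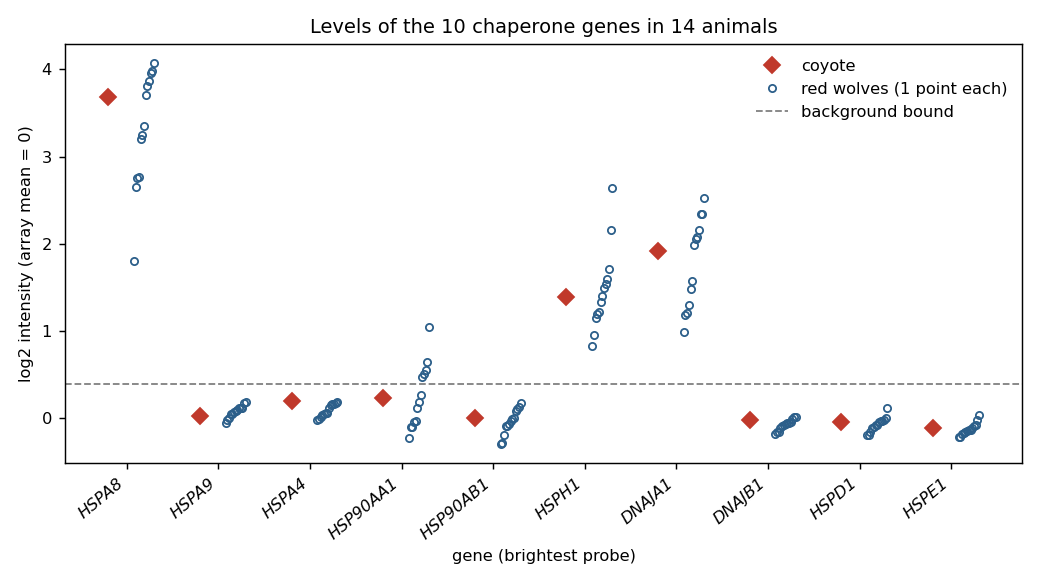
Log2 intensity (vertical axis, array mean at 0) of the brightest probe of each chaperone gene, with the coyote as a red diamond and each of 13 wolves as a blue circle. HSPA8, DNAJA1 and HSPH1 lie above the dashed background bound of 0.396 in every animal, and HSP90AA1 crosses it in 5 wolves.

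The first comparison asked which chaperones differed among the wolves by more than repeated arrays of the same RNA. HSPA8, DNAJA1, HSPH1 and HSP90AA1 differed, and the other 6 did not pass (limma's moderated F test, adjusted for slide, with a Benjamini-Hochberg adjusted p under 0.05 over all probes). These 4 of 10 members stand against 12.8% of all named genes. The share depends on brightness, since 79.1% of named genes above the bound passed and 5.52% of those at or below it. All 3 bright members passed, and 1 of the 7 dim ones. In whole blood, fewer cells of a type and less RNA per cell cannot be told apart, and the p-values measure only the spread between arrays.

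HSPA8 encodes the Hsp70 that cells make at all times, which also strips clathrin from vesicles. Its level was 1.80 in the lowest wolf, 11148, 3.35 at the median and 4.07 in the highest, 11310, with a mean of 3.32 ± 0.68 (SD, n = 13). The wolves spanned 4.81-fold in intensity. The share of variance between wolves was 0.904, and the SD between arrays was 0.21 (limma adjusted p = 1.65e-20). Of 1597 named genes above the bound, 95 had a larger SD over wolves.

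For HSPA8, wolves 11310, 11275, 111080, 11206, 11273 and 11270 stood between 3.70 and 4.07. Wolves 10537, 11105 and 11274 followed at 3.35, 3.25 and 3.20. Wolves 10406, 10632 and 11136 had levels of 2.77, 2.75 and 2.65, and wolf 11148 was alone at 1.80. The 3 gaps between these neighbours in the order were 0.35, 0.43 and 0.85, each above 2 standard errors of a difference between 2 wolves (0.30), and the other 9 gaps between neighbours were below it. Wolves on the same side of a gap need not be alike, since 4 of the 6 highest lay within 2 standard errors of wolf 11310 and wolf 11270 did not. The arrays of wolf 11148 ranged from 1.67 to 1.92 and overlapped those of no other wolf, the nearest being 2.50 in wolf 11136. On each of its 4 slides wolf 11148 lay below the mean of the other wolves there, with differences from -1.85 to -1.51. Its signal range was 0.741. The part of signal range in the HSPA8 order was not tested, and no correlation between them was computed. Signal range tended to be wider in wolves with more HSPA8, but wolves 11310 and 11148, at the ends of the order, went against this. It was 0.607 in wolf 11310 but 0.781 to 0.866 in the other 5 of the 6 highest wolves. In wolves 10537, 11105 and 11274 it was 0.735, 0.835 and 0.679, and in wolves 10406, 10632 and 11136 it was 0.568, 0.685 and 0.381. The second HSPA8 probe stood between -0.45 and -0.20 in all wolves and did not pass (adjusted p = 0.647), so the pattern rests on 1 probe.

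DNAJA1 encodes a J-domain partner of Hsp70 of the Hsp40 type. It stood at 0.99 in the lowest wolf, 10632, 1.99 at the median and 2.52 in the highest, 11310 (mean 1.79 ± 0.52, SD, n = 13). The share of variance between wolves was 0.892 (limma adjusted p = 1.38e-18), and the span 2.89-fold. Wolves 11310, 11275, 111080, 11273, 11270, 11206 and 11105 had levels between 1.99 and 2.52. Wolves 10537, 11136, 11148, 11274, 10406 and 10632 stood between 0.99 and 1.58. The gap of 0.41 between wolves 11105 and 10537 was the only one above 2 standard errors (0.25), and the lowest array above it, 1.75, lay just over the highest array below it, 1.73. Signal range was 0.781 to 0.866 in the wolves above the gap other than 11310 (0.607), and 0.381 to 0.741 in those below it. HSPA8 and DNAJA1 still differed among the wolves after quantile normalization and with arrays scaled to equal spread. Passing this test does not show that their order of wolves was kept. At its lowest over the alternatives the SD of DNAJA1 over wolves was 0.42, against 0.52 here. The part of signal range in the order of either gene was not tested. DNAJB1, a J-domain protein that heat induces strongly in many cells, did not pass: it ranged from -0.18 to 0.02 over the wolves, below the bound (adjusted p = 0.820).

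HSPH1 encodes an Hsp110, which resets Hsp70 by exchanging its nucleotide. Its order of wolves was another one. It was highest in wolf 11273 at 2.64 and next in wolf 11275 at 2.16. Both gaps, 0.48 below wolf 11273 and 0.45 below wolf 11275, exceeded 2 standard errors (0.26). The other 11 wolves ran without such a gap from 1.71 in wolf 11105 to 0.82 in wolf 11310, with a median over all wolves of 1.40. Its mean was 1.48 ± 0.49 (SD, n = 13), the share of variance between wolves 0.864 and the span 3.52-fold (limma adjusted p = 7.13e-17). HSPA4, the other Hsp110 among the members, ranged from -0.02 to 0.19, below the bound, and did not pass (adjusted p = 0.887).

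Wolf 11310 thus had the highest HSPA8 and DNAJA1 and the lowest HSPH1. Compared slide by slide with the other wolves, it lay above their mean 4 of 4 times for HSPA8, by 0.09 to 1.24, and for DNAJA1, by 0.48 to 1.10. For HSPH1 its differences on the same slides were negative, from -0.90 to -0.24. The same wolf was highest for the immediate-early genes EGR1 and FOS, transcription factors induced within minutes of a stimulus, at 5.48 and 4.68 (next highest wolf, 10537, 1.83 and 2.33). Its mean level over the 10 measured red cell genes, 0.86, was the lowest of the wolves, against a median of 1.14. Wolf 11273, highest for HSPH1, had a red cell mean of 1.41, the next to highest after wolf 11105 at 1.49, and wolf 11275 had 1.39. HSPH1 was 1.71 in wolf 11105, at rank 3 among the wolves. It was 1.40 and 1.34 in wolves 10406 and 11274, whose red cell means were 1.38 each. Over the wolves the red cell mean ran from 0.86 to 1.49, with 6 of the 10 genes above the bound. The mean over the 7 platelet genes, of which only PF4 lay above the bound, was also highest in wolf 11273, at 0.33, and next to lowest in wolf 11310, at 0.16 (wolf 11136, 0.12). The part of either marker list in the HSPH1 pattern was not tested.

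Hsp90 is encoded by a stress-inducible gene, HSP90AA1, and one expressed at all times, HSP90AB1. HSP90AA1 stood at -0.22 in the lowest wolf, 11136, 0.19 at the median and 1.05 in the highest, 11273 (mean 0.26 ± 0.37, SD, n = 13). Its share of variance between wolves was 0.731 (limma adjusted p = 3.48e-12). Wolf 11273 lay 0.41 above wolf 11310, beyond 2 standard errors (0.29), and no other gap reached that size. The wolves above the bound were 11273, 11310, 11275, 11206 and 111080, at 1.05, 0.64, 0.56, 0.51 and 0.47. These 5 are among the 6 wolves with the highest HSPA8. Below the bound the levels of the other 8 have no firm order, and wolf 11136, the lowest, also had the narrowest signal range. HSP90AB1 ranged from -0.29 to 0.17, below the bound in all wolves, and did not pass (adjusted p = 0.111).

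**Figure D2:**
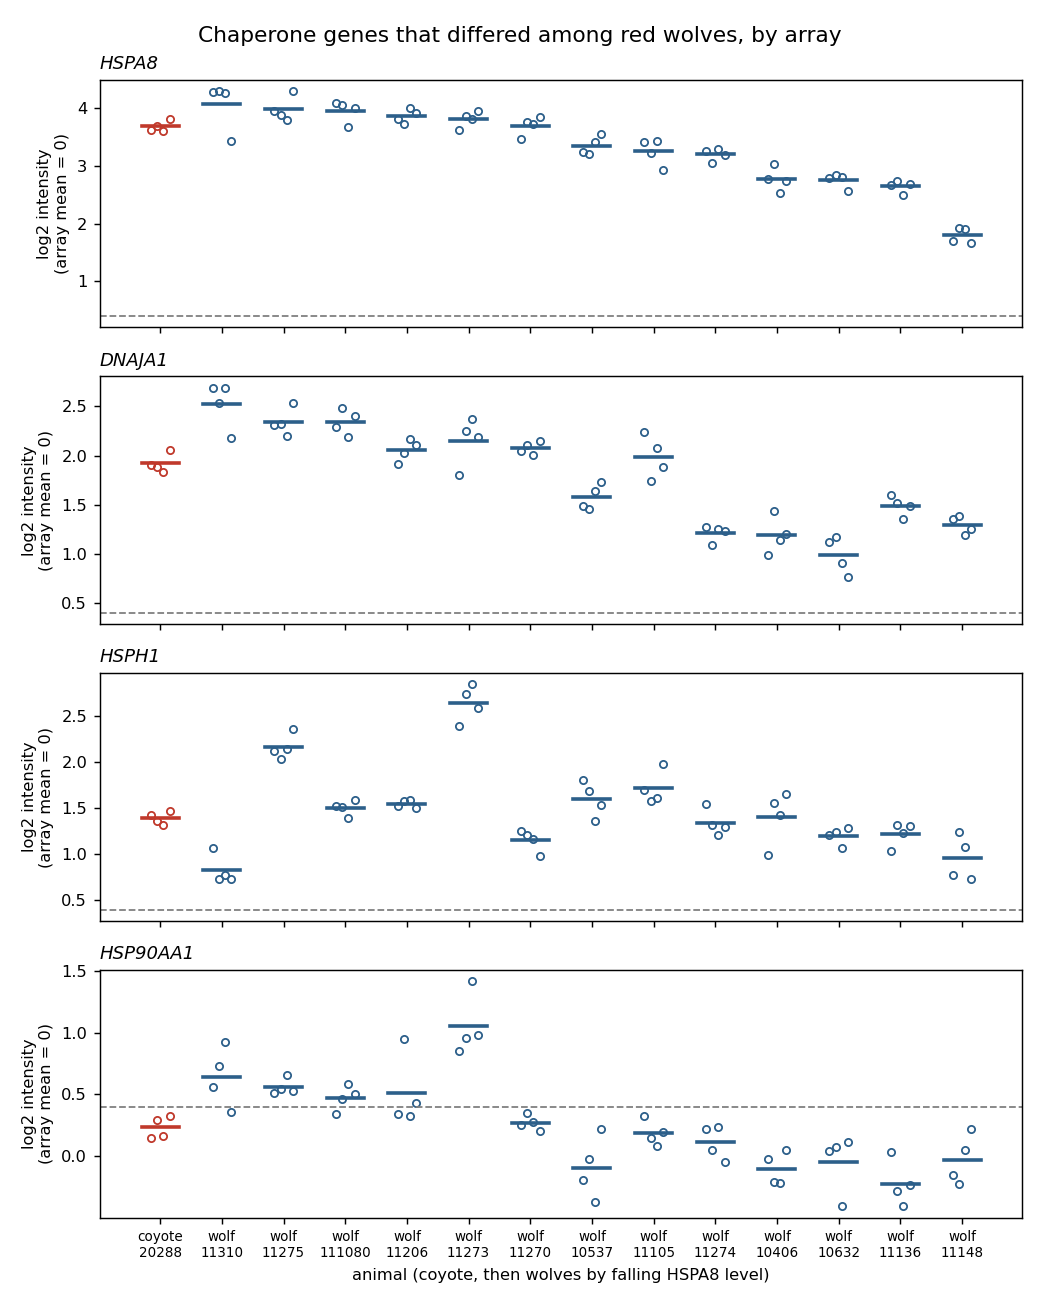
Log2 intensity after removal of slide effects (vertical axes, array mean at 0) of the 4 genes that differed, with 1 circle per array, a bar for the mean of 4 arrays, the coyote in red at the left and the wolves in blue in the order of falling HSPA8. DNAJA1 falls broadly along the same order from 2.52 in wolf 11310, while HSPH1 peaks at 2.64 in wolf 11273 and is lowest, at 0.82, in wolf 11310; the dashed line is the background bound of 0.396.

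The mitochondrial chaperones were all below the bound. HSPA9, the mitochondrial Hsp70, ranged from -0.05 to 0.19 over the wolves. HSPD1 (Hsp60) ranged from -0.19 to 0.12 and HSPE1 (Hsp10) from -0.21 to 0.04. None passed (adjusted p = 0.735, 0.50 and 0.738), and a second HSPD1 probe had an adjusted p of 0.356. Differences among wolves in these genes were not detectable with these human probes, which does not show that the transcripts were absent or equal.

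The second comparison asked which chaperones went together over the wolves, in 10 pairs. These were partners in folding, together with EGR1 beside HSPA8 and beside DNAJA1. EGR1 was included because wolf 11310 was already known from these data to be highest for EGR1 and HSPA8. Of the 10 pairs 3 passed a permutation test of Pearson's r with adjustment over the pairs. HSPA8 and DNAJA1 had r = 0.834 over 13 wolves (permutation p = 0.00051, adjusted p = 0.0051, two-sided) and, by rank, rho = 0.896 (Spearman, permutation p = 8e-05, adjusted over pairs 0.0008). With the wolves farthest from the HSPA8 median left out, 11148 and 11310, r was 0.889 (permutation p = 0.00069). Within the 7 slides, with 7 or 8 wolves on each, r lay between 0.699 and 0.948. Signal range was wide in most of the wolves high for both genes, but not in wolf 11310, as given above. The correlation of HSPA8 with DNAJA1 was 0.704 after quantile normalization and 0.752 with arrays scaled to equal spread, and passed under both.

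HSPA8 and HSP90AA1 had r = 0.761 (permutation p = 0.00253, adjusted p = 0.00977), with Spearman rho = 0.830 (permutation p = 0.00077, adjusted 0.00385). Without wolves 11148 and 11310 r was 0.826 (permutation p = 0.00152), and within slides it lay between 0.528 and 0.821. HSP90AA1 lay above the bound in only 5 of 13 wolves, and the levels of the others have no firm order. Signal range was 0.607 in wolf 11310, 0.824 to 0.866 in the rest of those 5, and 0.381 to 0.835 in the other wolves. The pair passed in all 30 alternatives, quantile normalization and arrays scaled to equal spread among them (r 0.665 to 0.840). The part of signal range in this pair was not tested. HSP90AA1 and HSP90AB1 had r = 0.751 (permutation p = 0.00293, adjusted p = 0.00977), with Spearman rho = 0.769 (permutation p = 0.00307, adjusted 0.0102). Without wolves 11273 and 11310 r was 0.624 (permutation p = 0.0418). Within slides it ran from -0.382 to 0.953 and was positive in 6 of 7, so it did not hold in each. HSP90AB1 lay below the bound, both genes of a pair are read on the same arrays, and in wolf 11206 both stood high on the same array, at 0.95 and 0.68 (its other arrays at most 0.43 and 0.02). The call was lost without slide 32020 (r = 0.649, adjusted p = 0.0514), without slide 32021 (r = 0.619, adjusted p = 0.0797) and without the third array of each animal (r = 0.552, adjusted p = 0.127).

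HSPA8 and HSPH1 did not pass, with r = 0.412 (permutation p = 0.160, adjusted p = 0.321), with Spearman rho = 0.313 (permutation p = 0.299, adjusted 0.598). Without wolves 11148 and 11310 r was 0.544 (permutation p = 0.0791), and within slides it ran from -0.0587 to 0.827. With each wolf left out in turn r lay between 0.282 and 0.638 and never passed (lowest adjusted permutation p = 0.0645). The value of r for this pair thus depended on single wolves. HSPD1 and HSPE1, the barrel and the lid of one folding chamber, had r = 0.577 (permutation p = 0.0394, adjusted p = 0.0985), with Spearman rho = 0.516 (permutation p = 0.0720, adjusted 0.180), and r = 0.159 without wolves 11136 and 11273 (permutation p = 0.641). EGR1 did not pass with either gene that peaked in wolf 11310. Its r was 0.198 with HSPA8 (permutation p = 0.521, rho 0.033, permutation p = 0.920) and 0.208 with DNAJA1 (permutation p = 0.567, rho -0.110, permutation p = 0.721), each with adjusted p = 0.567 for r and 0.920 for rho. Both signs rested on wolf 11310: without it r was -0.211 with HSPA8 and -0.395 with DNAJA1. Without wolves 11148 and 11310 r of HSPA8 with EGR1 was -0.329 (permutation p = 0.317), and without wolves 10632 and 10406 r of DNAJA1 with EGR1 was 0.390 (permutation p = 0.251).

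The remaining pairs did not pass, and each holds at least 1 gene below the bound. HSPA8 and DNAJB1 had r = -0.188 and rho = -0.154 (permutation p = 0.538 and 0.615), but r = -0.682 without wolves 11148 and 11310 (permutation p = 0.0231, not adjusted). HSPA8 and HSPA4 had r = 0.244 and rho = 0.0934 (permutation p = 0.425 and 0.765), and r = -0.0402 without the same wolves (permutation p = 0.905). HSPA9 and HSPD1 had r = 0.196 and rho = 0.0549 (permutation p = 0.523 and 0.863), and r = -0.113 without wolves 11273 and 111080 (permutation p = 0.746). Within slides r took both signs in each of these pairs, from -0.817 to 0.622 for HSPA8 with DNAJB1. Adjusted p for r was 0.567 in each.

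**Figure D3:**
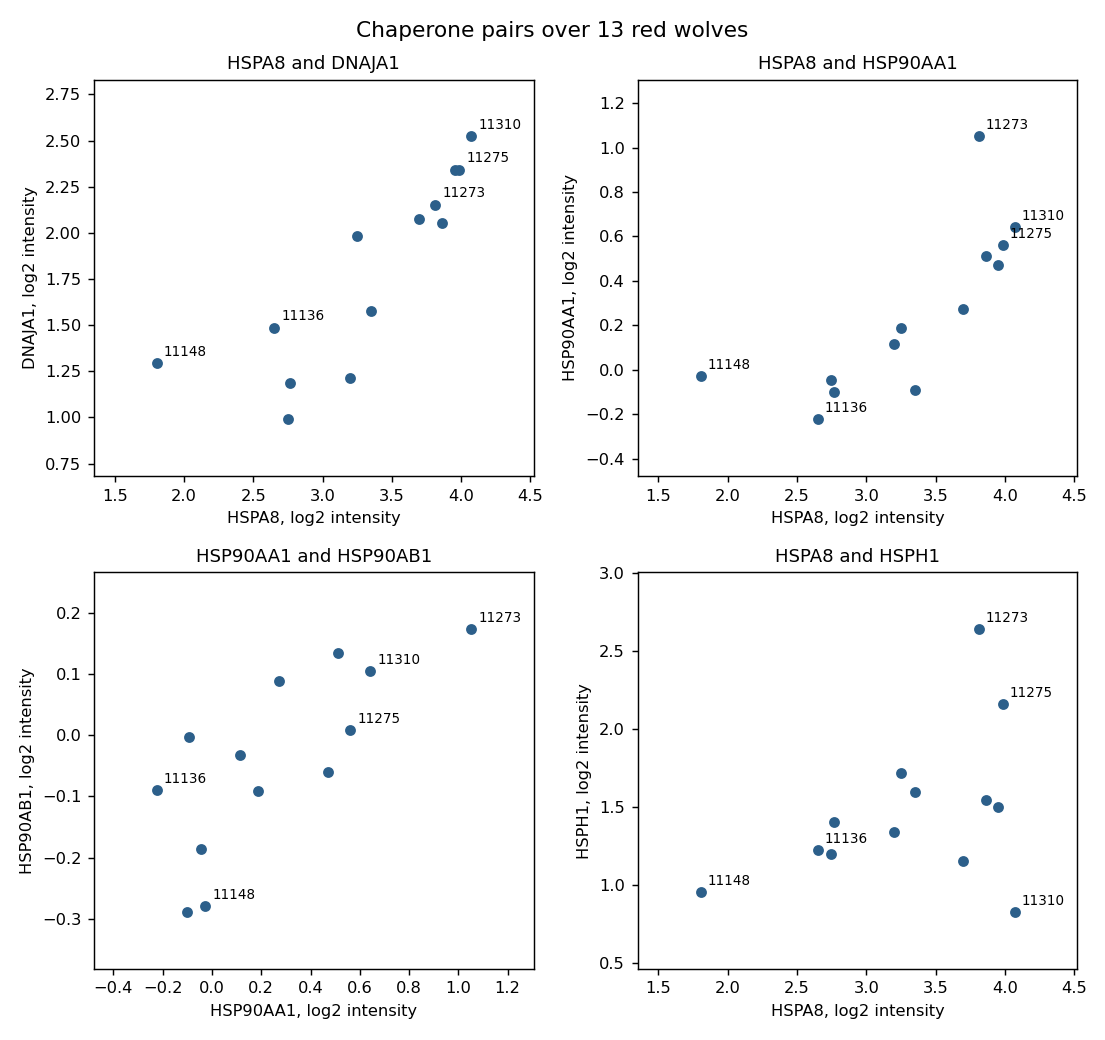
Levels of 4 chaperone pairs (log2 intensity on both axes, 1 point per wolf, n = 13, selected wolves labelled by number). HSPA8 goes with DNAJA1 (r = 0.834) and with HSP90AA1 (r = 0.761), whereas in the HSPA8 and HSPH1 panel (r = 0.412) wolves 11310 and 11273 lie at opposite ends of HSPH1.

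The genes most like each bright member, among the 1596 other named genes above the bound, are given as a description over 13 wolves. DNAJA1 was nearest to HSPA8 and HSPA8 nearest to DNAJA1 (r = 0.834). After DNAJA1, HSPA8 was followed by OTOF (0.813), the splicing protein gene SNRPC (0.797), PTGFRN (0.782) and CDK2AP2 (0.780). DNAJA1 was followed by TCP1, a subunit of the cytosolic chaperonin (0.797), the histone gene H2AC12 (0.780), CHIC2 (0.75) and METAP2, which removes the first methionine of new proteins (0.732). HSPH1 had many near neighbours: 229 genes had r above 0.7 with it, against 23 with HSPA8 and 9 with DNAJA1. Its nearest were HTR2B (0.858), SIRPB2 (0.848), GGTLC2 (0.845), LAMB2 (0.845) and the mitochondrial ribosome gene MRPS27 (0.840), which themselves had SDs over wolves of only 0.11 to 0.25. The part of signal range in these correlations was not tested.

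Other genes of the chaperone network were measured in 6 lists, with 100 of 109 listed genes on the arrays. Of these 15 differed among the wolves, 9 of them among the 13 above the bound, against 12.8% of all named genes and 79.1% of those above the bound. The median share of variance between wolves was 0.0651 over the 100 genes, 0.116 over the 10 members and 0.0705 over all named genes.

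Among other J-domain proteins 3 of 29 passed. DNAJA2, a close relative of DNAJA1, had an SD over wolves of 0.56 and was lowest in wolf 11273 at 0.76, with a median of 1.43 and its highest level, 2.32, in wolf 11206 (limma adjusted p = 2.39e-20). Wolf 11273, highest for HSPH1 and HSP90AA1, was thus lowest for DNAJA2. DNAJB2 ran from 0.47 in wolf 11136 to 1.58 in wolf 11206 (SD 0.34, limma adjusted p = 1.99e-12). DNAJC6, which brings HSPA8 to clathrin coats, passed at levels below the bound (adjusted p = 0.0270).

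Of the Hsp70 and Hsp90 co-chaperones 5 of 24 passed. BAG6, which guards newly made membrane proteins, ran from 0.29 in wolf 11136 to 1.45 in wolf 111080 (SD 0.32). SUGT1, an Hsp90 partner, ran from 0.34 in wolf 11275 to 1.15 in wolf 11310 (SD 0.27). FKBP5 and FKBP4, co-chaperones of steroid receptors, were both highest in wolf 11273, at 0.82 and 0.62, like HSP90AA1. The mean of FKBP4, 0.05, lay below the bound. UNC45A, a myosin chaperone, was the last of the 5 (SD 0.15). Limma adjusted p values for these 5 lay between 6.73e-12 and 0.0126.

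In the cytosolic chaperonin TRiC, which folds actin and tubulin, 2 of 9 subunits passed: TCP1, from 0.70 in wolf 11136 to 1.45 in wolf 111080 (SD 0.21, limma adjusted p = 6.01e-06), and CCT8, with a mean of 0.32 below the bound (SD 0.16, limma adjusted p = 0.00173). Of mitochondrial quality control genes 2 of 15 passed. CLPB, a mitochondrial disaggregase, ran from 1.19 in wolf 11136 to 2.73 in wolf 11273 (SD 0.47, limma adjusted p = 1.35e-12), and the protease gene HTRA2 from -0.01 in wolf 11273 to 1.05 in wolf 11270 (SD 0.35, limma adjusted p = 8.94e-15). Wolf 11136, with the narrowest signal range, was lowest for 7 of the 15 network genes that passed (HSPB3, DNAJB2, FKBP5, UNC45A, BAG6, TCP1 and CLPB).

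Of the other Hsp70 and small heat shock protein genes 3 of 19 passed: HSPA14, HSPB3 and HSPB9, all with means below the bound and SDs of 0.17, 0.13 and 0.17. HSPB7 exceeded the bound in 5 wolves (mean 0.41) and did not pass. HSPA1A, HSPA1B and HSPB1, which heat induces in many cells, lay below the bound in all wolves. HSPA1A ranged from -0.17 to -0.01 over the wolves, HSPA1B from -0.42 to -0.20 and HSPB1 reached at most 0.27, and none passed (adjusted p = 0.963, 0.696 and 0.793). Of HSF1, HSF4, HSF5 and HSBP1, the last encoding a heat shock factor binding protein, 0 of 4 passed limma's F test, and 0 had an unadjusted p under 0.05. HSF1 stood between -0.31 and 0.02 (adjusted p = 0.252), and HSF2 has no value here.

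**Figure D4:**
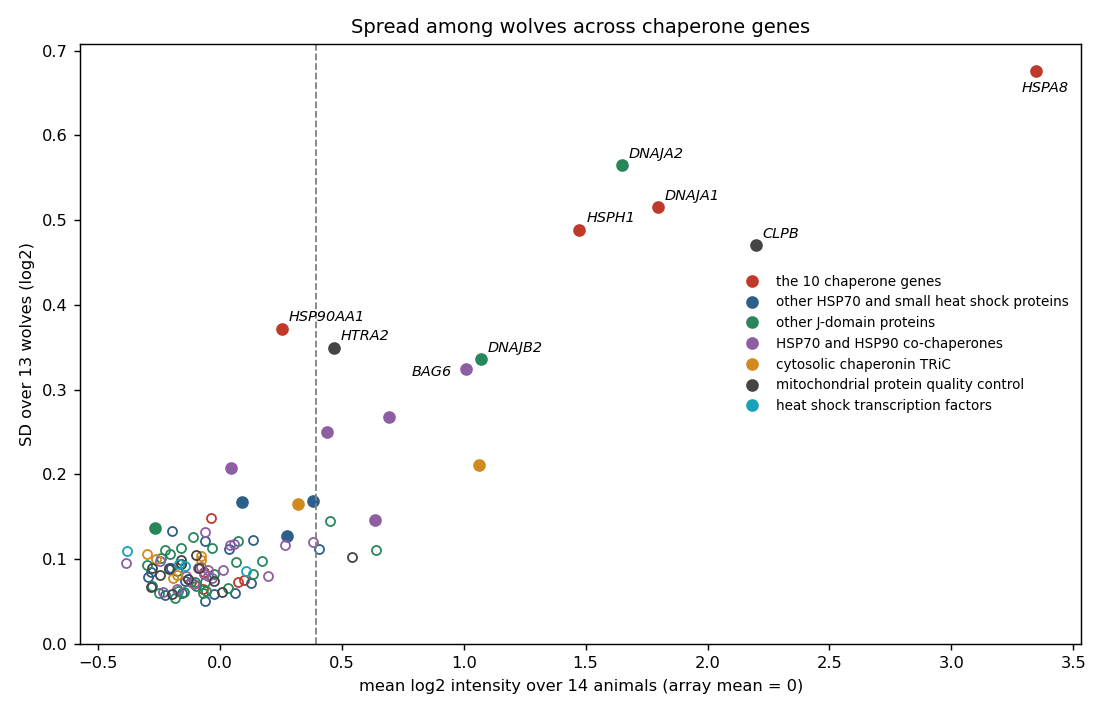
SD over 13 wolves (vertical axis, log2) against the mean level over 14 animals (horizontal axis, log2 intensity, array mean at 0) for the 10 chaperone genes and 100 network genes, coloured by list, with filled points for adjusted p under 0.05 in limma's F test and the background bound as a dashed line. HSPA8 has the largest SD, 0.68, followed by DNAJA2 at 0.56 and DNAJA1 at 0.52, and most genes below the bound lie under an SD of 0.2.

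The third comparison set the coyote against the wolves. HSPA8 reached 3.68 in the coyote, against 3.32 ± 0.68 over the wolves (SD, n = 13), a difference of 0.36 (SE 0.72, 95% interval -1.11 to 1.84). DNAJA1 reached 1.92 in the coyote, against 1.79 ± 0.52 over the wolves, a difference of 0.13 (interval -0.85 to 1.11). HSPH1 had 1.39 in the coyote, against 1.48 ± 0.49 over the wolves (difference -0.09, interval -0.96 to 0.79). HSP90AA1 had 0.23 in the coyote, against 0.26 ± 0.37 over the wolves (difference -0.02, interval -0.57 to 0.52). The coyote lay inside the range of the wolves for all 4 genes, yet the intervals are wide. That of HSPH1 runs from -0.96 to 0.79 on the log2 scale, and those of HSPA8 and DNAJA1 are wider.

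None of the 10 members passed limma's test of the coyote (adjusted p between 0.998 and 0.999), and 0 had an unadjusted p under 0.05. Of all named genes 0.0062% passed, and 3.83% had an unadjusted p under 0.05. The coyote lay outside the range of all wolves for 1 of the 10, against 12.2% of named genes. That gene was HSPA4, at 0.20 in the coyote, against at most 0.19 in any wolf, all below the bound (difference 0.11, interval -0.09 to 0.30). For the other 5 dim members the difference lay between -0.05 and 0.06. In the network lists 0 of 100 genes passed and 7 had an unadjusted p under 0.05, 4 of them higher in the coyote. The coyote is 1 animal, and its own spread was assumed to equal that of the wolves.

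**Figure D5:**
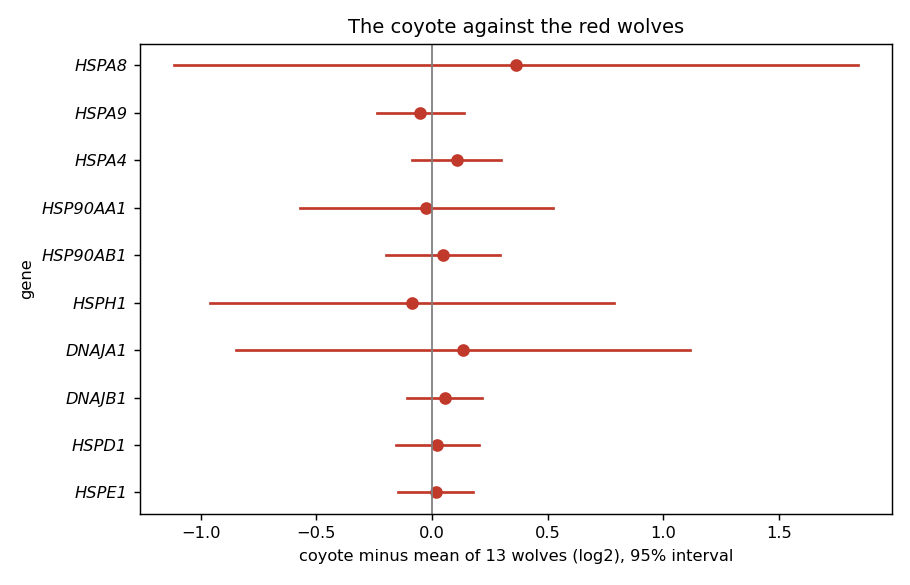
Coyote minus the mean of 13 wolves (horizontal axis, log2) for the 10 chaperone genes, as points with 95% intervals from limma. Every interval includes 0, and that of HSPA8, from -1.11 to 1.84, is the widest.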

How the data were processed

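RNA of whole blood in RNAlater was amplified, biotin-labelled and measured on human Illumina arrays, per the labels' protocols, with BeadStudio version 1.5.0.34 as the reader software named in the submitters' processing notes. The authors deposited log2 intensities that, per the labels' design text, they centred on each array's median; in the table the mean of each array is 0 and medians lie between -0.167 and -0.0325. Whether background was subtracted is not stated in the sources used here. Of 24354 probes 18339 have 1 gene symbol in the platform annotation and 6015 none. Arrays were assigned to animals and slides from the labels, and the number of arrays limits precision.

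With limma 3.58.1 in R 4.3.3, wolves were compared by the moderated F test of animal with slide as a covariate (52 arrays). The coyote was compared over 1 value per animal, from a fit of animal and slide, on 12 residual degrees of freedom. eBayes used an intensity trend, and p-values were adjusted over all probes. Pairs were tested with 100000 permutations. The tests were tried on simulated data, in which 200 probes were changed. All 10 members were named. From each other list up to 4 genes past the F test were named, by the largest SD, together with HSF1, HSPA1A, HSPA1B and HSPB1; UNC45A, the fifth of its list, was added once its value was known. For each bright member the 5 genes with the highest r were named. The members and lists were chosen with earlier results of these data known.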

Additional observations from a re-analysis of the deposited data

Results flagged for a closer look

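Within the 4 arrays of an animal, 11 of 140 combinations of member and animal held an array far from the others by Dixon's test at the 95% level, where chance flags about 1 in 20. Slide effects were removed from the values below. For HSPA8, wolf 11310 had 3.44 on slide 32022 and 4.27 to 4.30 on the other 3 arrays, so that the level of 4.07 given for this wolf includes 1 low array. For HSPH1 the same wolf had 1.06 on slide 32010 and at most 0.77 on its other arrays. HSP90AA1 and HSP90AB1 were both high in wolf 11206 on slide 32013, at 0.95 and 0.68. HSP90AA1 was low in wolf 10632 at -0.40, HSP90AB1 in wolf 11148 at -0.68, DNAJB1 in wolf 10632 at -0.17, and HSPD1 in wolf 111080 at -0.34. HSPA9 was high in wolf 11206 at 0.47 and low in wolf 11275 at -0.11, and HSPA4 was high in wolf 11105 at 0.53. The cause of these arrays was not tested.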

How the results depend on the processing

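Across 32 alternatives the count of members that differed among wolves lay between 3 and 5. HSPA8, DNAJA1 and HSPH1 passed in all 32 and HSP90AA1 in the 31 that tested it; it is not among the genes tested once dim probes are left out, where the count is 3 of 3. HSP90AB1 passed in 1 alternative (adjusted p = 0.0461). The SD of HSPA8 fell to 0.33 when its bright and dim probes were averaged. The count of network genes lay between 10 and 18, and the count of called pairs between 2 and 4. Without each wolf, slide or array number in turn, r of HSPA8 with DNAJA1 lay between 0.806 and 0.907 (0.704 at the lowest over all 30 alternatives), of HSPA8 with HSP90AA1 between 0.665 and 0.840, and of HSP90AA1 with HSP90AB1 between 0.552 and 0.827, the last losing its call in 3 of these 24. HSPD1 with HSPE1 passed in 5 of 30 alternatives. No member passed in the coyote under any of 33 alternatives, and 30 of 323 recomputed coyote differences changed sign. No paired analysis was possible because the array numbers of an animal follow accession order and pair nothing between animals.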
